A study of Mus musculus with 41 samples.

Results

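KO3 and KO2 are E14 mouse embryonic stem cell lines, both genetically depleted for Esrrb, and they were compared after the same 3 days in AloXR medium. The comparison rests on 6 of the 41 libraries of the series, namely the 2 libraries of KO3 and the 4 libraries of KO2 at that time. They were chosen by the line and the tag p2 in their titles, and libraries with this tag had 3 days in AloXR. Esrrb WT E14 cells at the same time (4 libraries) are given beside them. All of these cells had first been kept in 2iL, which is N2B27 with LIF, the MEK inhibitor PD0325901 and the GSK3 inhibitor CHIR99021. They were then plated on fibronectin, held for 1 day in N2B27, and moved for 3 days to AloXR, which is N2B27 with activin A at 3 ng/ml, XAV at 2 µM and BMS439 at 1 µM. Neither the deleted part of Esrrb nor whether the libraries of a line are separate cultures is in the labels. Each line is 1 line, so the p-values below measure the spread between libraries, which may be technical, and not the spread between lines of one genotype. RNA was read by QuantSeq, a method that sequences the 3′ ends of polyadenylated RNA.

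Esrrb, a nuclear receptor with no known natural ligand, is part of the network of naive pluripotency together with Nanog, Tfcp2l1, Zfp42 and the Krüppel-like factors Klf2, Klf4 and Klf5. On leaving 2iL, cells lower this network and raise formative genes such as Otx2, Pou3f1, Fgf5 and Dnmt3b. Embryonic stem cells can also enter other states. Primitive endoderm is marked by Gata6, Sox17 and Pdgfra and secretes the laminins and type IV collagens of the basement membrane. A two-cell-like state is marked by Zscan4 and the Tcstv genes.

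Promoters are shown for Zscan4c and Zscan4d, because the reads of such duplicated genes are hard to tell apart, and for Col4a1, because it shares its promoter with Col4a2. Each is the RefSeq window in GRCm38.p6 from 250 bases before to 50 after the start. Zscan4c lies at chr7:11005495-11005794 (+ strand) and Zscan4d at chr7:11166099-11166398 (- strand). Capitals mark AAGGTCA, the letters that Esrrb is known to bind, here in reverse complement as TGACCTT.
Zscan4c: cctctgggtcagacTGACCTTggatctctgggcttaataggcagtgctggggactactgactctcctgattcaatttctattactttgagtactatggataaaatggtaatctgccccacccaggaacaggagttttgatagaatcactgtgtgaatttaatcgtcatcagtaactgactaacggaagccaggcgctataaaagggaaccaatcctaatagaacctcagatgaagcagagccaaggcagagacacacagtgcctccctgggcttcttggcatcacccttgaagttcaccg
Zscan4d: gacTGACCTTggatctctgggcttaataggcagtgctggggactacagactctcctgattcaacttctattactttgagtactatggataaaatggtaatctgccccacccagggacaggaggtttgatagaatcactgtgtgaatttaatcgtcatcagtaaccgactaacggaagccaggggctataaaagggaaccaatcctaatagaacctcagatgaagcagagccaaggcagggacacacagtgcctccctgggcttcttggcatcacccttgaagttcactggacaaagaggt
The 2 windows are identical at 282 of 311 aligned positions (90.7%). Searched on both strands, AAGGTCA stands in 4.72% of 32851 windows of the same length. It stands in the windows of 4 of the 51 genes named here that have one, Zscan4c, Zscan4d, Sct and Hmgcs1, while AGATAA, the letters of a GATA site, stands in 3 of 51 and in 11.2% of all windows. The 51 genes have 71 windows, so these counts of genes are not like the shares of single windows. A match is a description of the letters, not a site.

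Col4a1 and Col4a2, which encode chains of type IV collagen, start head to head. The Col4a1 window (chr8:11312777-11313076, - strand) and the Col4a2 window (chr8:11312555-11312854, + strand) overlap by 78 bases, marked by capitals.
Col4a1: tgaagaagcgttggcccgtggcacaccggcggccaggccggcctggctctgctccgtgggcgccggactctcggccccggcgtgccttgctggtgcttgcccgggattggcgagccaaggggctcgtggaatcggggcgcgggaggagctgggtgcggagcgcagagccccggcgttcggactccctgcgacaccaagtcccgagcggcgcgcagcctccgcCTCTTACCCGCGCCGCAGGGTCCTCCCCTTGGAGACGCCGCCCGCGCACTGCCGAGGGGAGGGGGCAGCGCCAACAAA
Neither window holds AAGGTCA or AGATAA.

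Esrrb transcripts were low in all 6 libraries. They stood at 3.20, 1.26, 2.29 and 1.16 CPM (reads of a gene per 1000000 assigned reads) in KO2, 6.17 and 4.87 CPM in KO3 and 1.83, 1.75, 1.19 and 1.63 CPM in WT, so both KO3 libraries lay above all others. KO3 exceeded KO2 by 1.18 ± 0.33, limma adjusted p = 0.017. Here and below, differences are on the log2(CPM + 1) scale with the standard error of the fit (n = 2 and 4), and this scale understates the change of low genes. The call was lost without KO2 library 4 or either KO3 library (highest limma adjusted p over all settings = 0.21). The exact two-sided permutation test gave p = 0.1333, the smallest that 2 against 4 libraries allow. A 3′ tag outside a deleted part does not check a deletion, and WT overlapped with KO2 at this time. In 2iL, Esrrb stood at 434, 381 and 309 CPM in WT, 51.99, 55.2 and 56.7 CPM in KO2 and 103, 136 and 166 CPM in KO3. At day 1 it stood at 17.3, 13.1, 17.8 and 12.2 CPM in WT, 5.52, 4.83, 1.86 and 1.64 CPM in KO2 and 41.4, 38.5, 26.1 and 29.4 CPM in KO3 (KO3 minus KO2 3.06 ± 0.27, limma adjusted p = 1.5e-11, 4 libraries each). KO3, labelled as depleted, thus lay above every WT library at day 1 and at day 3, and the difference between the lines was smaller at day 3 than at day 1 (change -1.88 ± 0.43, limma adjusted p = 0.016). That change lost its call without KO3 library 1 (limma adjusted p = 0.075), without KO3 library 2 (0.21) and with edgeR (0.23). The related receptor Esrra stood at 7.54, 4.54, 6.88 and 6.01 CPM in KO2 and 6.37 and 10.5 CPM in KO3, which overlap, and Esrrg was at or below 0.21 CPM in all 6 libraries.

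The 6 libraries held 3963259 to 5157009 assigned reads. Pearson's r of log2 values across genes, which are not independent replicates, was 0.978 to 0.988 within a line and 0.970 to 0.975 between the lines. The 2 KO3 libraries differed least from each other (chi-square per degree of freedom 2.07, against 5.83 to 13.1 for pairs of KO2 libraries), and still by more than sampling noise. Mitochondrially encoded transcripts took 3.75% to 4.04% of reads in KO3 and 2.81% to 3.83% in KO2. The 6 stem cell markers (Pou5f1, Sox2, Nanog, Utf1, Dppa4 and Lin28a) summed to 683 to 699 CPM in KO3, 526 to 800.4 CPM in KO2 and 736 to 858 CPM in WT, and 4 blood markers to at most 1.7 CPM in the 6 libraries. The stem cell sum hides opposite shifts. Dppa4 and Nanog were called higher in KO3 and none of the 6 lower (against 5.58% and 2.11% of all genes). Lin28a, not called, stood at 134 and 132 CPM in KO3, below every KO2 (242, 195, 179 and 164 CPM) and WT library.

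Of 16967 genes tested, 946 (5.58%) were called higher in KO3 than in KO2 and 358 (2.11%) lower, by limma with an adjusted p below 0.05 and a 1.5-fold change or more. Together these were 7.69% of the genes. The median difference of the called genes was 1.01 among the higher and -0.96 among the lower. Genes whose KO3 libraries all lay above the KO2 libraries made up 20.8% of those tested, and genes all below made up 13.7%. The excess of rises depended on scaling: quantile normalization gave 705 higher and 559 lower (55.8% higher, against 72.5% as reported). With a single KO3 library, counts fell to 423 genes (without KO3 library 1) and 482 genes (without KO3 library 2).

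**Figure D1:**
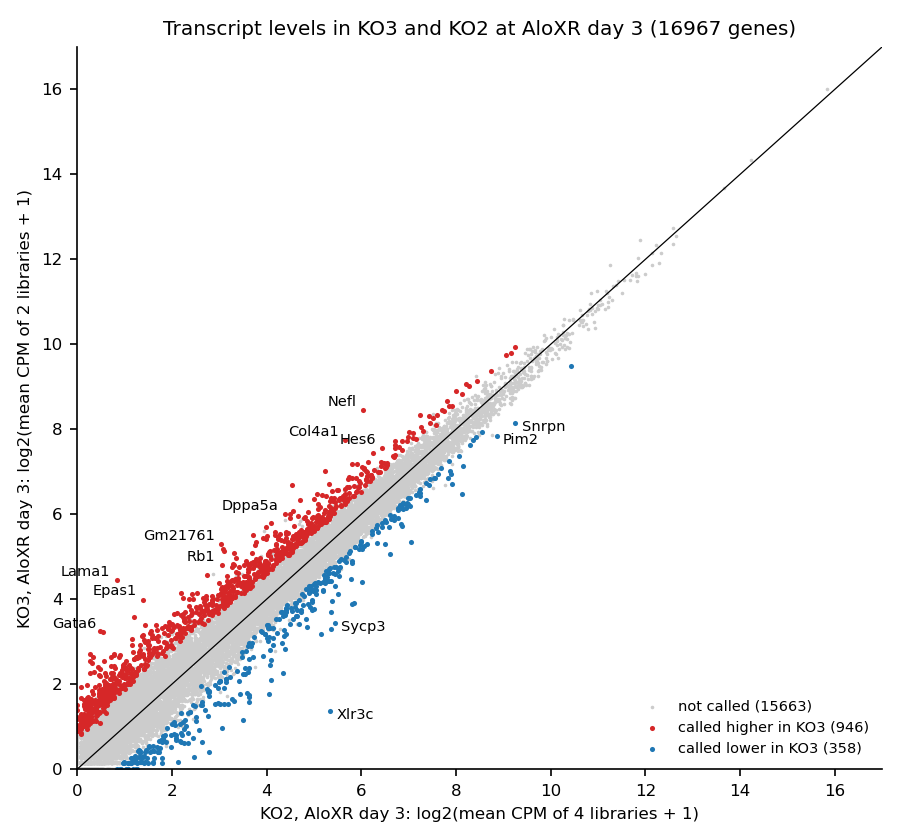
Each point is 1 of 16967 genes, at its mean level over 4 KO2 libraries (horizontal) and 2 KO3 libraries (vertical), both as log2 of CPM plus 1. Red genes were called higher in KO3 (946) and blue genes lower (358), and Lama1 and Xlr3c stand farthest from the line of equal levels.

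Part of the primitive endoderm list was higher in KO3. Of 23 list members, 21 passed the filter on low values (at least 1 CPM in 3 libraries of the series). Of these, 9 rose and none fell (against 5.58% and 2.11% of all genes), and 16 had both KO3 libraries above all KO2 libraries (20.8% of all genes), with a median difference of 0.81 against 0.06 over all genes. A member near 0 in the other groups can pass the filter by its KO3 values. For such members, here and in the other lists, the share over all genes is not a like background. The change of largest size was in Lama1, the laminin alpha chain of embryonic basement membrane. It stood at 0.23, 0.25, 1.46 and 1.16 CPM in KO2, 0, 0.22, 0.47 and 0.54 CPM in WT, and 16.5 and 25.1 CPM in KO3 (3.66 ± 0.37, limma adjusted p = 1.7e-09). The levels of KO2 and WT lay near each other and far below both KO3 libraries.

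Its transcription factors were lower in level but followed the same order. Gata6, which specifies primitive endoderm, stood at 0.23, 1.01, 0.42 and 0.19 CPM in KO2 and 8.43 and 8.27 CPM in KO3 (2.71 ± 0.42, limma adjusted p = 2.6e-05). Sox17, an endoderm factor that acts after it, was listed at 0 in 3 of 4 KO2 libraries, at 0.83 CPM in KO2 library 3, and at 4.52 and 5.11 CPM in KO3 (2.32 ± 0.30, limma adjusted p = 6.3e-07). Gata4, of the same family as Gata6, reached only 1.03 and 0.49 CPM in KO3 and did not pass the test (difference 0.53). Sox7 was listed at 0 in all KO2 libraries, reached 0.21 and 0.97 CPM in KO3, and was below the filter on low values.

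Receptors and secreted products showed the difference too. The endocytic adaptor Dab2 stood at 6.17, 10.4, 8.55 and 9.50 CPM in KO2 and 26.9 and 25.3 CPM in KO3 (1.51 ± 0.47, limma adjusted p = 0.034). The growth factor receptor Pdgfra stood at 0, 0.76, 1.04 and 0.19 CPM in KO2 and 2.47 and 2.68 CPM in KO3 (1.31 ± 0.36, limma adjusted p = 0.014). Both calls were lost when either KO3 library was left out. Dab2 also lost its call under quantile normalization and without KO2 library 1, 3 or 4, and Pdgfra under edgeR and with a pseudocount of 5 CPM. Srgn, a proteoglycan core protein, stood at 0.23, 0.50, 0.42 and 0.39 CPM in KO2 and 5.76 and 11.2 CPM in KO3 (2.72 ± 0.52, limma adjusted p = 0.00057), a call lost without KO3 library 2.

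Col4a1 stood at 55.3, 42.4, 55.4 and 44.99 CPM in KO2, 26.99, 25.97, 32.7 and 28.8 CPM in WT and 194 and 230.2 CPM in KO3 (2.08 ± 0.20, limma adjusted p = 1.7e-09). Its head-to-head partner Col4a2 stood at 14.4, 17.4, 15.01 and 12.8 CPM in KO2 and 47.3 and 55.5 CPM in KO3 (1.72 ± 0.29, limma adjusted p = 7.1e-05). For both genes WT was lowest, KO2 intermediate and KO3 highest, with no overlap between the lines. Of 18 basement membrane and adhesion genes, which share members with the list above, 7 rose and none fell (against 5.58% and 2.11% of all genes, median 0.51), with 4 called without KO3 library 1 and 5 without KO3 library 2. Cdh3, which encodes P-cadherin, rose by 2.33 ± 0.37, limma adjusted p = 4.8e-05, from 14.4, 2.27, 8.96 and 4.27 CPM in KO2 to 40.9 and 29.9 CPM in KO3, and lost its call when only these 6 libraries were fitted.

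The 6 primitive endoderm markers (Gata4, Gata6, Sox17, Sox7, Pdgfra and Dab2) summed to 42.8 to 43.6 CPM in KO3, 6.4 to 12.4 CPM in KO2 and 1.22 to 4.51 CPM in WT. In bulk RNA, more cells of this kind and more of these transcripts per cell cannot be told apart. The count of 9 members called fell to 6 without KO3 library 1 and to 5 without KO3 library 2, and was 8 or 9 under each other setting run except the stricter filter on low values (7 of the members still tested). By time, the calls of the list were 2 higher and 2 lower in 2iL, 10 higher and 1 lower at day 1, and 16 higher and 0 lower at day 5 (backgrounds 2.5%, 8.19% and 9.02% higher, and 4.74%, 6.79% and 5.06% lower).

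**Figure D2:**
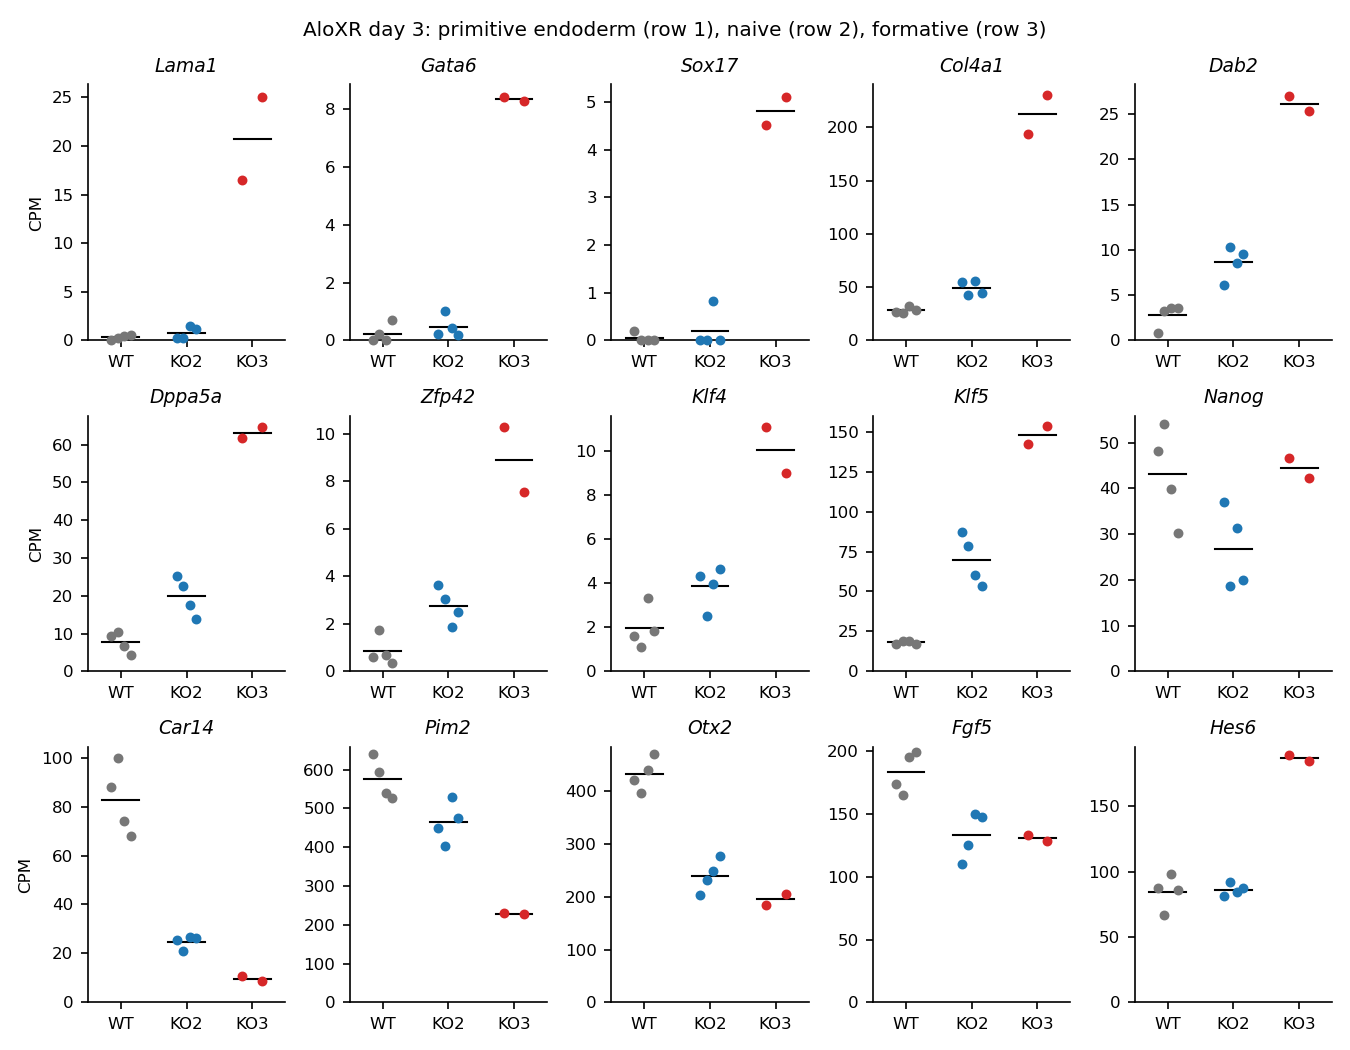
CPM of each library (points) and group mean (short lines) at AloXR day 3 in WT (grey, 4 libraries), KO2 (blue, 4) and KO3 (red, 2), for primitive endoderm genes (row 1), naive genes (row 2) and formative genes (row 3). KO3 lies above KO2 with no overlap for the genes drawn in rows 1 and 2, all of which were called higher. Of the whole lists, 12 of 21 primitive endoderm and 17 of 29 naive members tested were not called, and 1 naive member fell. In row 3 Car14 and Pim2 are lower, Hes6 is higher, and Otx2 and Fgf5 overlap between KO2 and KO3.

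Some naive pluripotency genes were higher in KO3 as well. Of 29 members tested, 11 rose (Dppa5a, Fbxo15, Zfp42, Nr5a2, Klf4, Esrrb, Tbx3, Klf5, Klf2, Dppa4 and Nanog) and 1 fell (Tdgf1), against 5.58% and 2.11% of all genes, and 17 were not called. The median difference of the list was 0.76. Dppa5a, an RNA-binding protein of stem cells, stood at 25.4, 22.7, 17.5 and 13.8 CPM in KO2, 9.33, 10.5, 6.64 and 4.34 CPM in WT and 61.7 and 64.7 CPM in KO3 (1.66 ± 0.24, limma adjusted p = 9.9e-06). The transcription factor Zfp42 (Rex1), a standard marker of the naive state, stood at 3.65, 3.03, 1.88 and 2.52 CPM in KO2 and 10.3 and 7.54 CPM in KO3 (1.40 ± 0.32, limma adjusted p = 0.0034). Fbxo15, an F-box protein and classical reporter gene of embryonic stem cells, stood at 24.4, 18.2, 13.6 and 12.2 CPM in KO2 and 42.8 and 50.9 CPM in KO3 (1.44 ± 0.33, limma adjusted p = 0.0039). In all 3 genes every WT library lay below KO2 and both KO3 libraries above it. The 3′ end of Dppa5a shares 56.3% of its 31-base words with other genes, so its counts are uncertain. Without KO3 library 1 the call of Zfp42 was lost, and without KO3 library 2 that of Fbxo15.

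Among the Krüppel-like factors, Klf5 stood at 87.5, 78.5, 60.4 and 53.1 CPM in KO2 and 142 and 153 CPM in KO3 (1.10 ± 0.18, limma adjusted p = 6.8e-05), and Klf4 at 4.34, 2.52, 3.96 and 4.65 CPM in KO2 and 11.1 and 9 CPM in KO3 (1.20 ± 0.30, limma adjusted p = 0.0065). Klf2 stood at 1.83, 4.04, 4.79 and 6.59 CPM in KO2 and 9.46 and 8.76 CPM in KO3 (1.01 ± 0.28, limma adjusted p = 0.013). In 2iL, Klf2 had stood at 770.4, 703 and 587 CPM in KO2 and 338, 411 and 459 CPM in KO3. At day 1 its order was the opposite of that at day 3, with 18.6, 17.01, 21.4 and 17.7 CPM in KO2 and 10.01, 9.41, 8.36 and 7.68 CPM in KO3, and the change of the difference between these days was 2.01 ± 0.36, limma adjusted p = 0.00091.

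Nanog differed in another way: WT (48.1, 54.1, 39.8 and 30.2 CPM) overlapped with KO3 (46.7 and 42.3 CPM) and also with KO2 (37, 18.7, 31.3 and 19.97 CPM). Only KO2 and KO3 did not overlap, with KO2 lower (KO3 minus KO2 0.77 ± 0.21, limma adjusted p = 0.012). Tdgf1 (Cripto), the Nodal co-receptor, was the member that fell, from 126, 113, 135 and 81.4 CPM in KO2 to 52.2 and 54.3 CPM in KO3 (-1.06 ± 0.23, limma adjusted p = 0.0027). The count of 11 rises fell to 4 without KO3 library 1 and 5 without KO3 library 2, and was 9 to 13 under the other settings. Klf2 and Nanog lost their calls when either KO3 library was left out, when only these libraries were fitted, and when each chromosome was centred (limma adjusted p = 0.16 for each). Klf2 also lost its call without KO2 library 1 and Nanog without KO2 library 2. Klf4 and Tdgf1 lost theirs without KO3 library 1, and Nr5a2 lost its call under 7 settings (highest limma adjusted p = 0.25). Members of this list made 2 calls each way in 2iL, 10 higher and 3 lower at day 1, and 5 higher and 2 lower at day 5. Over all genes, 2.5%, 8.19% and 9.02% were called higher at these times, and 4.74%, 6.79% and 5.06% lower.

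Core and formative genes showed no common direction. The median difference was -0.02 over 14 core pluripotency genes (1 called) and -0.02 over 28 formative genes (1 higher, 2 lower), against 0.06 over all genes, whose shares called were 5.58% higher and 2.11% lower. Fgf5, the growth factor of the formative epiblast, stood at 111, 125, 149.7 and 148 CPM in KO2 and 133 and 128 CPM in KO3 (difference -0.02 ± 0.17). Pou3f1 (Oct6) stood at 449, 475, 569.6 and 653 CPM in KO2 and 509 and 529 CPM in KO3 (difference -0.03 ± 0.22), and Otx2 at 203, 231, 248 and 277 CPM and 185 and 205 CPM (difference -0.29 ± 0.24). The values of the lines overlap for each of these 3 genes. The sign was reversed in 4 settings for Fgf5 and 3 for Pou3f1.

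The members that passed the test were Hes6, Car14 and Pim2. Hes6, a bHLH repressor of neural and early epiblast cells, stood at 81.1, 92.1, 84.6 and 87.3 CPM in KO2 and 189.8 and 185 CPM in KO3 (1.11 ± 0.21, limma adjusted p = 0.00035), with WT near KO2. Car14, a membrane carbonic anhydrase, stood at 87.9, 99.97, 74.2 and 67.8 CPM in WT, 25.6, 20.9, 26.7 and 26.2 CPM in KO2 and 10.7 and 8.76 CPM in KO3 (-1.27 ± 0.22, limma adjusted p = 0.00012). Pim2, a serine/threonine kinase, stood at 450.2, 403, 529 and 474 CPM in KO2 and 230.1 and 227 CPM in KO3 (-1.01 ± 0.25, limma adjusted p = 0.0072), a call lost when either KO3 library was left out. Sox2 (64.6, 44.4, 92.5 and 76.2 CPM in KO2, 71.4 and 70.8 CPM in KO3) overlapped between the lines, as did Pou5f1 (13.5, 13.9, 13.8 and 15.9 and 10.9 and 14.4 CPM), whose near-identical pseudogenes make its counts uncertain.

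Some genes of the two-cell-like state were called higher in KO3 at day 3, and members of the list were called lower in KO3 at earlier times. Of 17 members in the table, 10 passed the filter. At day 3, 4 rose (Zscan4c, Tcstv3, Zscan4d and Zscan4a) and none fell, against 5.58% and 2.11% of all genes, whereas all 10 were called lower in KO3 in 2iL (background 4.74%) and 9 at day 1 (6.79%), with none called at day 5. The change of the difference was called for 9 members against 2iL (background 3.09% higher) and 7 against day 1 (0.631%). The filter counts libraries of all times, so a member high in KO2 in 2iL or at day 1 can pass by those values. Counts of lower members at these times, and of changes from them, are therefore a description. The shares over all genes are not a like background for them. Zscan4c, a DNA-binding protein of the state, stood at 1.76, 0.69, 2.33 and 4.36 CPM in KO2 and 1.31, 1.09, 0.21 and 0.23 CPM in KO3 at day 1. At day 3 it stood at 0.23, 0, 0 and 0.19 CPM in KO2 and 2.47 and 1.70 CPM in KO3 (1.48 ± 0.29, limma adjusted p = 0.00065), and it was listed at 0 in all WT libraries. The KO2 values lie below the 0.582 to 0.757 CPM that a count of 0 allows (3 reads, counting error only) and the KO3 values above it.

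The 4 day 3 calls of the list were 1 with edgeR, 1 with quantile normalization, 0 with a pseudocount of 5 CPM, 0 without KO3 library 1, 2 when only these libraries were fitted, and 6 without KO2 library 1. Gm21761, Gm20767 and Gm8994 were chosen for their large rises at day 3 and large changes between times, so their values are a description and add no support to the list. Gm21761, a predicted gene beside the Tcstv cluster of chromosome 13, stood at 54.7, 54.3, 55.2 and 106 CPM in KO2 and 22.6, 20.8, 24 and 31.6 CPM in KO3 at day 1. At day 3 it stood at 12.1, 10.6, 3.75 and 2.52 CPM in KO2, 40.1 and 36.98 CPM in KO3 and 0, 0.22, 0.95 and 0.18 CPM in WT (2.48 ± 0.35, limma adjusted p = 4.8e-06). KO2 thus lay above KO3 at day 1 and below it at day 3, while the mean of KO3 was 24.8 CPM at day 1 and 38.5 CPM at day 3, with no overlap. Gm20767 (2.28, 2.27, 0.42 and 0.19 CPM in KO2, 9.25 and 12.7 CPM in KO3) and Gm8994 (4.11, 1.26, 0.42 and 0.97 and 9.05 and 9.97 CPM) also had both KO3 libraries on top and were called (2.52 and 2.14), and their WT libraries were all listed at 0. At day 1 Gm20767 was not called (-0.66) and Gm8994 was lower in KO3 (-1.27). At day 5 Gm21761 and Gm20767 were still higher in KO3 (2.94 and 1.27, both called), while Gm8994 was not called (0.59).

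Reads of these genes can be split between copies. Of the 31-base words in the last 300 bases of the annotated transcripts, 79.6% for Zscan4c, 78.5% for Zscan4a, 64.1% for Zscan4d, 84.1% to 85.2% for Gm21761, 65.9% to 91.5% for Gm20767 and 57% to 84.1% for Gm8994 also stand in a transcript of another gene. For Gm8994 these other genes were Gm5580, Gm5576 and Eif4a3, not Zscan4 or Tcstv genes. For Esrrb, Sox17, Col4a1 and Zfp42 the share was 0%. Values of single copies are therefore uncertain.

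**Figure D3:**
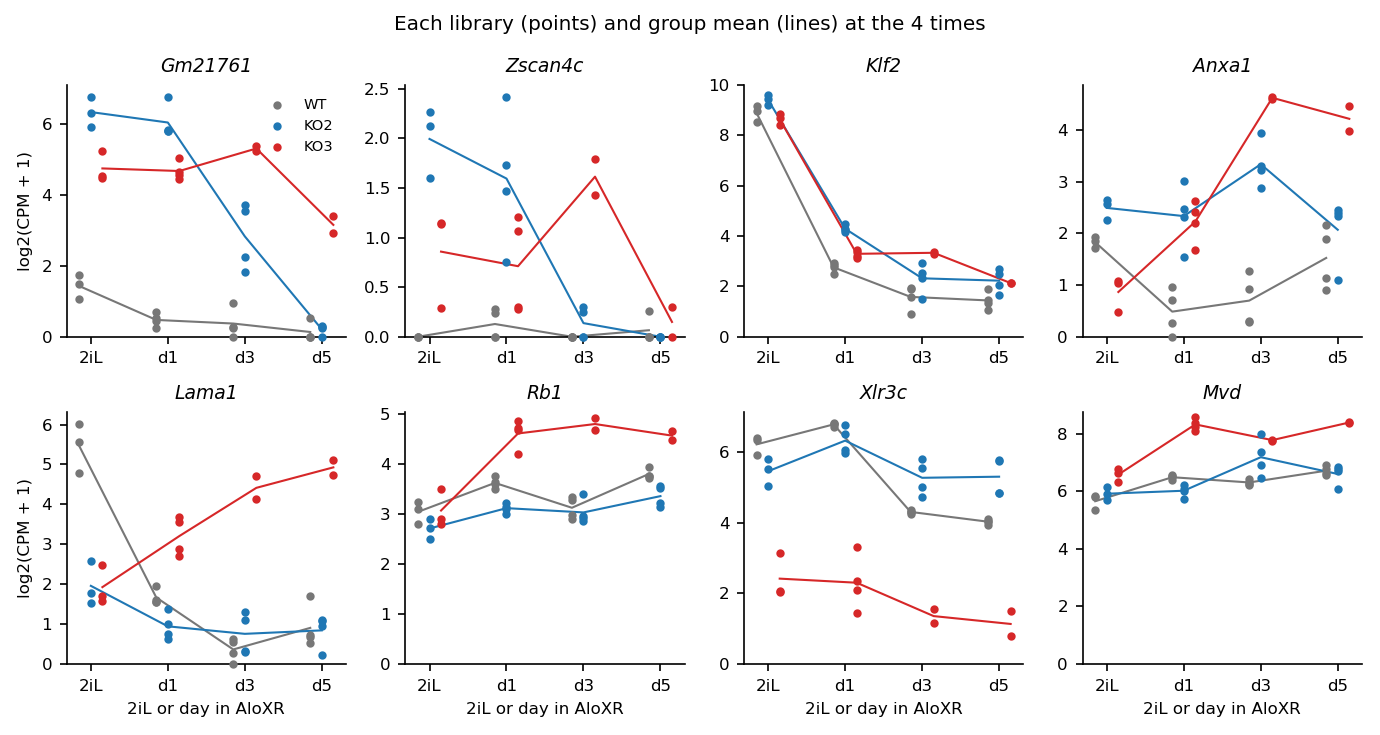
log2 of CPM plus 1 of each library (points) and group mean (lines) in 2iL and after 1, 3 and 5 days in AloXR, for WT (grey), KO2 (blue) and KO3 (red). The group means of Gm21761 and Zscan4c are higher in KO2 than in KO3 up to day 1 and lower at day 3, those of Klf2 and Anxa1 also cross, Lama1 and Rb1 separate the lines from day 1 on, Xlr3c does so at every time, and Mvd overlaps between the lines at day 3 only.

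Some trophoblast genes were higher in KO3. Of 25 members tested, 6 rose from KO2 to KO3 (Tfap2c, Tead4, Sct, Ascl2, Wnt7b and Rhox5) and 1 fell (Hand1), against 5.58% and 2.11% of all genes, with a median of 0.83. Tfap2c, which acts in trophoblast and the germ line, stood at 24.2, 33.8, 7.09 and 8.92 CPM in KO2, 44.8 and 46.2 CPM in KO3 and 0.61, 0.22, 1.90 and 1.27 CPM in WT (1.51 ± 0.46, limma adjusted p = 0.031). KO2 libraries 1 and 2 lay well above libraries 3 and 4. Tead4, which acts in trophectoderm formation, stood at 1.60, 2.78, 1.25 and 0.19 CPM in KO2 and 6.17 and 4.38 CPM in KO3 (1.45 ± 0.32, limma adjusted p = 0.0021). Hand1, needed for trophoblast giant cells, stood at 10.3, 10.9, 3.33 and 3.88 CPM in KO2 and 1.85 and 1.95 CPM in KO3 (-1.33 ± 0.31, limma adjusted p = 0.004).

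The defining factors Cdx2 (0.91, 0, 0.21 and 0 CPM in KO2, 1.65 and 0.97 CPM in KO3) and Elf5 (at most 0.41 CPM) were near 0, and Gata3 overlapped between the lines. The 5 trophoblast markers summed to 56.6 to 58.9 CPM in KO3 and 12.9 to 53.2 CPM in KO2, against 0.61 to 2.13 CPM in WT. The part of such cells in the other differences was not tested. The count of 6 rises was 1 without KO3 library 1, 2 without KO3 library 2, 3 without KO2 library 3 or library 4, 9 without KO2 library 1, 4 without the filter on low values and 10 with a pseudocount of 5 CPM. Tfap2c lost its call under 7 settings, edgeR among them (highest limma adjusted p = 0.27), Sct under 6, Hand1 when either KO3 library was left out or only these libraries were fitted, and Tead4 without KO3 library 1.

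The fall of largest size was in Xlr3c, an X-linked lymphocyte-regulated gene of a multicopy family. It stood at 25.6, 31.04, 55.02 and 46.2 CPM in KO2, 18.1, 18.8, 19.7 and 18.8 CPM in WT and 1.23 and 1.95 CPM in KO3 (-3.92 ± 0.35, limma adjusted p = 1.7e-09). It was low in KO3 at every time, with differences of -3.04 in 2iL, -4.02 at day 1 and -4.17 at day 5. Its relative Xlr4b fell too, from 11.2, 10.9, 21.7 and 20.8 CPM in KO2 to 2.88 and 3.65 CPM in KO3 (-1.94 ± 0.28, limma adjusted p = 4.9e-06). Their transcript ends share 77% and 65.6% to 100% of 31-base words with other genes.

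Sycp3, of the meiotic synaptonemal complex, stood at 114, 156, 108 and 110.2 CPM in WT, 54.6, 50.97, 35.9 and 28.7 CPM in KO2 and 8.84 and 10.95 CPM in KO3 (-1.96 ± 0.36, limma adjusted p = 0.00042). The germline gene Nlrp4c fell from 8.91, 8.58, 16.3 and 12.02 to 2.26 and 1.70 CPM and Plac8 from 39.1, 24.5, 45.9 and 29.5 to 8.43 and 7.79 CPM (limma adjusted p = 6.3e-05 and 0.00017). Tmsb15a, of the thymosin beta family, was low in KO3 (0.21 and 1.70 CPM) and WT (0.61, 0, 1.19 and 1.63 CPM) and higher in KO2 (7.08, 6.56, 10.8 and 4.85 CPM). Other large falls were Lrp8os2, an antisense gene whose reads may not be told from those of its partner, as the use of strand in counting is not given in the sources used here (-2.36), 1700048O20Rik (-2.34), the pancreatic phospholipase Pla2g1b (-2.08) and the methionine adenosyltransferase Mat1a (-1.97), each called also at day 1 and day 5.

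The chains of type I collagen were lower in KO3 than in KO2 and lowest in WT. Col1a1 stood at 23.1, 21.2, 10.8 and 6.79 CPM in KO2, 2.67 and 2.19 CPM in KO3 and 0.81, 0.65, 1.19 and 0.72 CPM in WT (-2.12 ± 0.40, limma adjusted p = 0.00032). Col1a2 stood at 47.97, 58.5, 25.4 and 28.1 CPM in KO2, 9.66 and 8.03 CPM in KO3 and 4.06, 4.80, 4.27 and 4.88 CPM in WT (-1.98 ± 0.40, limma adjusted p = 0.00084). The surface protein Thy1 fell as well, from 9.59, 7.06, 11.5 and 10.3 to 3.70 and 2.68 CPM (-1.33 ± 0.30, limma adjusted p = 0.0028), a call lost without KO3 library 2. Col3a1, a further fibroblast collagen, was at or below 0.63 CPM in all 6 libraries. The 8 fibroblast and feeder markers summed to 56.2 to 102 CPM in KO2, 20.2 to 24.3 CPM in KO3 and 20.3 to 26.8 CPM in WT, with 3 of the 6 tested called lower (2.11% of all genes), and their part in the result was not tested. KO2 libraries 1 and 2 were higher than libraries 3 and 4 in both collagens.

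Named imprinted genes of the Prader-Willi region on chromosome 7 were lower in KO3. Snrpn, which encodes a splicing protein, stood at 664, 538, 613 and 628 CPM in KO2, 450.1, 483, 442 and 435 CPM in WT and 271 and 293 CPM in KO3 (-1.11 ± 0.11, limma adjusted p = 1.7e-09). Ndn (necdin) stood at 43.6, 32.04, 51.9 and 49.8 CPM in KO2, 31.5, 34.5, 28.5 and 33.1 CPM in WT and 17.5 and 15.6 CPM in KO3 (-1.35 ± 0.25, limma adjusted p = 0.0003). In both genes KO3 lay below every WT and KO2 library. Their neighbour Magel2, chosen after its values were seen, stood at 31.3, 28.8, 87.95 and 77.6 CPM in KO2 and 13.4 and 14.8 CPM in KO3 (-1.75 ± 0.39, limma adjusted p = 0.0025), with KO2 libraries 3 and 4 highest. Its call was lost without KO3 library 1 or with only these libraries fitted. Over the 25 imprinted genes tested, 1 rose (Ascl2) and 3 fell (Snrpn, Ndn and Usp29), against 5.58% and 2.11% of all genes, and the median difference was 0.33, opposite in sign to these genes. In Usp29 the KO3 libraries stood apart, at 4.73 and 0.97 CPM, and overlapped with KO2 (5.03, 4.29, 6.04 and 5.24 CPM). Its call was lost under 9 settings, edgeR among them, and its difference ranged from -1.63 to -0.09 over the settings. The single rise became 4 without KO2 library 1, 3 without KO2 library 2 and 0 when any 1 of the other 4 was left out.

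Genes of interferon response and antigen presentation changed in both directions, with 2 of 18 members higher and 3 lower (against 5.58% and 2.11% of all genes, median -0.37), and with 0 higher and 1 lower when either KO3 library was left out. H2-K1, a class I heavy chain, fell from 64.4, 43.2, 67.95 and 42.1 CPM in KO2 to 19.12 and 23.4 CPM in KO3 (-1.29 ± 0.25, limma adjusted p = 0.00067), and its relatives in the same gene family make its counts uncertain. Psmb8, an immunoproteasome subunit, stood at 36.3, 29.8, 29.6 and 27.7 CPM in KO2, 12.1 and 13.1 CPM in KO3 and 2.64, 3.49, 1.42 and 0.90 CPM in WT (-1.22 ± 0.31, limma adjusted p = 0.0082), a call lost when either KO3 library was left out. Ifitm1, a membrane protein of germ cells and interferon response, rose from 10.7, 11.6, 8.75 and 6.40 to 16.04 and 18 CPM (0.82 ± 0.26, limma adjusted p = 0.036) and lost its call under 7 settings, quantile normalization among them.

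Of 15 cyclins and cell cycle inhibitors tested, 3 rose (Rb1, Cdkn2a and Ccnd2) and none fell (against 5.58% and 2.11% of all genes, median 0.35), a count that was 5 without KO2 library 1 or with a pseudocount of 5 CPM and 2 without KO3 library 2. Rb1, the retinoblastoma protein that restrains entry into S phase, stood at 9.59, 6.56, 6.25 and 6.79 CPM in KO2, 8.73, 9.17, 6.88 and 6.51 CPM in WT and 24.7 and 29.4 CPM in KO3 (1.77 ± 0.21, limma adjusted p = 2.1e-07). Cdkn2a, the locus of p16 and p19ARF, stood at 80.2, 62.1, 41.7 and 36.7 CPM in KO2, 21.7, 21.2, 22.1 and 20.8 CPM in WT and 139.6 and 147 CPM in KO3 (1.43 ± 0.24, limma adjusted p = 0.00014). Ccnd2, a D-type cyclin, stood at 33.1, 30.03, 42.5 and 50.6 CPM in KO2 and 95.8 and 111 CPM in KO3 (1.41 ± 0.33, limma adjusted p = 0.0047), a call lost without KO3 library 2. All 3 differences were called at day 1 and day 5 as well, and none in 2iL.

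Other rises of the largest size were spread over functions. Nefl, the neurofilament light chain, stood at 49.3, 57.5, 68.8 and 82.4 CPM in KO2, 83.8, 96.9, 92.02 and 91.5 CPM in WT and 360.3 and 336 CPM in KO3 (2.44 ± 0.28, limma adjusted p = 4.5e-07). Epas1, the hypoxia-inducible factor 2 alpha, stood at 1.83, 1.01, 2.92 and 0.78 CPM in KO2 and 18.1 and 11.7 CPM in KO3 (2.63 ± 0.26, limma adjusted p = 1.7e-09). Pga5, which encodes a pepsinogen, was at most 0.39 CPM in KO2 and stood at 4.52 and 6.57 CPM in KO3. Gm43908 reached 5.14 and 5.35 CPM in KO3 and at most 0.83 CPM in KO2. The small heat shock genes Cryab (36.8, 52.2, 37.3 and 37.04 CPM in KO2, 72.4 and 113 CPM in KO3) and Hspb1 (52.5, 94.9, 56.3 and 57.2 and 134 and 137 CPM) were called higher (1.14 and 1.08), and both calls were lost when either KO3 library was left out. Cryab also lost its call under 5 other settings (highest limma adjusted p = 0.41). Of 19 immediate early genes, 5 rose (Egr3, Junb, Ier2, Nr4a1 and Btg2) and none fell (against 5.58% and 2.11% of all genes, median 0.71), with 1 called when either KO3 library was left out and 3 with chromosomes centred or under quantile normalization.

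**Figure D4:**
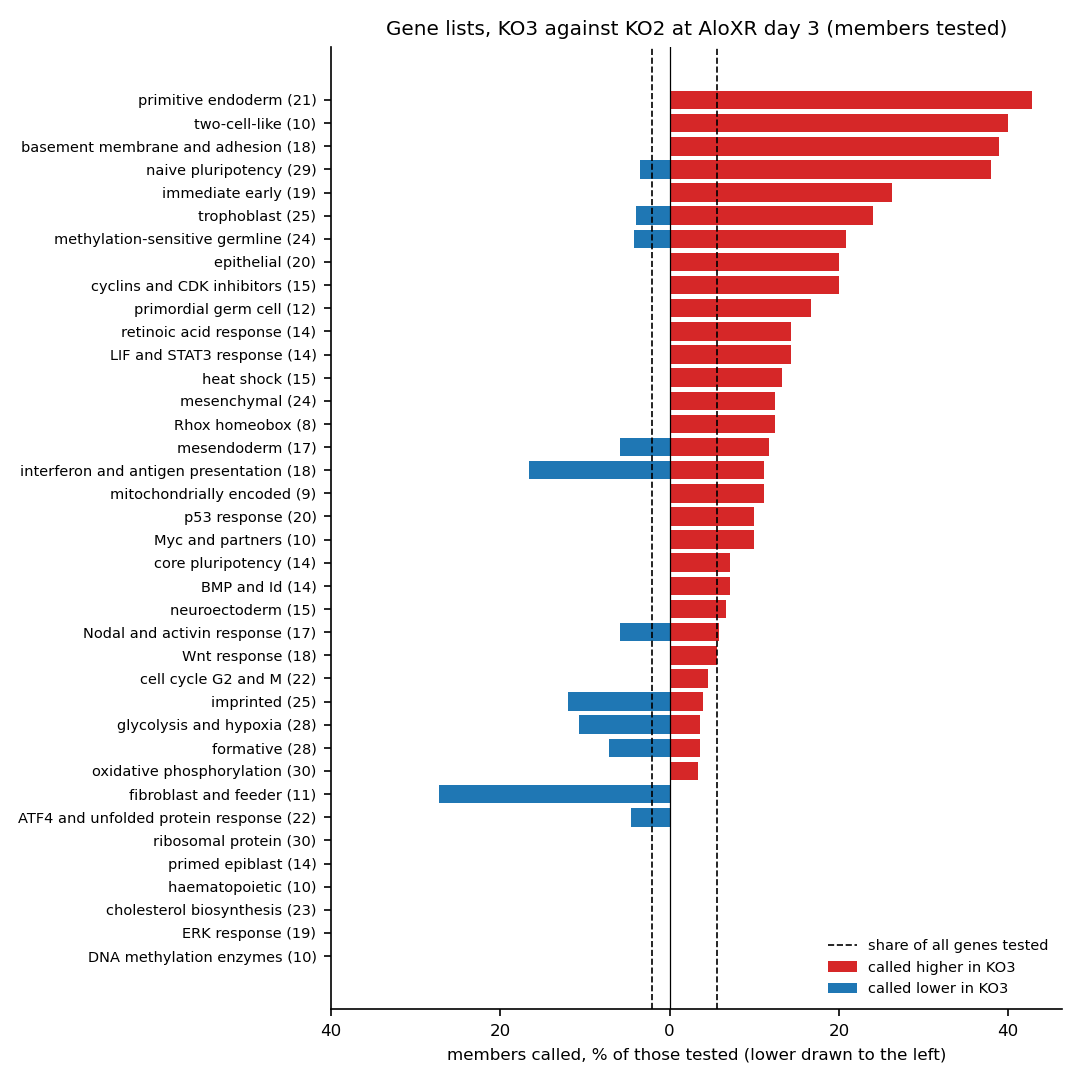
Share of the tested members of each gene list (number tested in brackets) called higher in KO3 (red, to the right) or lower (blue, to the left) at AloXR day 3. Dashed lines give the shares over all genes, 5.58% higher and 2.11% lower; primitive endoderm, two-cell-like, basement membrane and naive lists reach farthest to the right, and the fibroblast and feeder list farthest to the left.

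The day 3 difference shared more called genes with the other AloXR times, at which more genes were called, than with 2iL. Of all genes tested, 8.19% were called higher at day 1, 9.02% at day 5 and 2.5% in 2iL. The shares called lower were 6.79%, 5.06% and 4.74%. Of the 946 genes higher at day 3, 439 (46.4%) were also higher at day 1, 484 (51.2%) at day 5 and 128 (13.5%) in 2iL. These made up 31.6%, 31.6% and 30.2% of the genes called higher at those times. Of the 358 lower genes, 200 (55.9%) were also lower at day 1, 186 (52%) at day 5 and 97 (27.1%) in 2iL, or 17.4%, 21.7% and 12.1% of the genes called lower there. Across 8495 genes of at least 10 CPM, the differences at day 3 correlated with those at day 1 (Pearson's r = 0.72), day 5 (0.66) and 2iL (0.4), a description over genes of the same lines. The times share no libraries.

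A change of the difference itself was called for 126 genes against day 1 (0.743% of those tested), 28 against day 5 (0.165%, with 0.0413% higher and 0.124% lower) and 649 against 2iL (3.83%, with 3.09% higher and 0.731% lower). The lines themselves differed in 7.24% of genes in 2iL, 15% at day 1 and 14.1% at day 5. These counts depended on single libraries. Without KO3 library 1 they were 59, 3 and 283, and without KO3 library 2 they were 34, 0 and 239. Without KO2 library 1 the count against day 5 was 55, and without KO2 library 4 it was 15. Besides the two-cell-like genes, Anxa1, a calcium-dependent membrane protein, reversed between 2iL (-1.63) and day 3 (1.29), when it stood at 14.4, 8.83, 8.34 and 6.40 CPM in KO2 and 23.2 and 24.1 CPM in KO3. Its day 3 call was lost without KO2 library 4 or either KO3 library.

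Cholesterol synthesis genes were called at the neighbouring times and not at day 3. None of 23 members was called at day 3 (median 0.19, with 1 higher under quantile normalization or without KO2 library 3 and 2 without KO2 library 4), against 13 higher at day 1 (median 0.66, background 8.19% higher) and 18 higher at day 5 (median 0.89, background 9.02% higher). Mvd, of the mevalonate pathway, was higher in KO3 by 0.67 in 2iL, 2.30 at day 1 and 1.79 at day 5. At day 3 its difference was 0.59 ± 0.23 (limma adjusted p = 0.094), and it ranged from 86.8 to 254 CPM over the KO2 libraries, around the 215 and 221 CPM of KO3, and was called higher when KO2 library 4 was left out (0.86, limma adjusted p = 0.0029). Mvd lies on chromosome 8, and its day 3 difference was 0.23 with each chromosome centred. KO2 libraries 3 and 4 were higher than libraries 1 and 2 in Mvd and Hmgcs1 (874, 815, 1278 and 1163 CPM). The change of the difference was called lower for 2 members against day 1 and 3 against day 5, out of backgrounds of 0.112% and 0.124%.

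Beside WT, whose libraries both comparisons share, 3217 genes were called in KO3 (19%, with 12.7% higher and 6.24% lower) and 2425 in KO2 (14.3%, with 7.31% higher and 6.98% lower). KO3 lay farther from WT than KO2 in the same direction for Col4a1 (2.85 against 0.77), Dppa5a (2.94 against 1.29) and Car14 (-2.95 against -1.68). For Col1a1 the order was the opposite (0.90 against 3.02), and Rb1 and Nefl stood at 1.68 and 1.92 in KO3 (called) and at -0.09 and -0.51 in KO2 (not called).

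Differences also followed whole chromosomes. Over genes of at least 10 CPM, the median difference at day 3 was 0.36 on chromosome 8 (489 genes, 90.6% above 0) and 0.36 on chromosome 6 (400 genes, 83% above 0), against 0.02 over all 8495. It was 0.21 on chromosome 13, 0.2 on chromosome 4, 0.18 on chromosome 2 and 0.15 on chromosome 1, and -0.15 to -0.01 on the other autosomes and X. On chromosome 8, 130 of 902 genes tested were called higher and 1 lower, and on chromosome 6 the counts were 114 and 6 of 868. Against WT, chromosome 8 stood at 0.46 in KO3 and 0.12 in KO2, while chromosomes 2, 4 and 13 stood at -0.25, -0.24 and -0.25 in KO2. The chromosome 8 median was 0.36 in 2iL, 0.39 at day 1 and 0.37 at day 5. The 11 genes of the mitochondrial genome stood at -0.16 in 2iL, 0.47 at day 1, 0.27 at day 3 and 0.43 at day 5. Relative to each gene's mean over all libraries, their day 3 library medians ran from -0.67 to 0.16 in KO2 and from 0.18 to 0.28 in KO3. Genes of a chromosome are not replicates.

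Col4a1, Col4a2, Cdh3, Zfp42 and Klf2 lie on chromosome 8. With each chromosome centred, Col4a1 kept a difference of 1.72, Col4a2 1.36, Cdh3 1.97 and Zfp42 1.04 and stayed called, while Klf2 did not (0.65). Junb and Ier2 of the immediate early genes and Mvd lie there too. With this centring 621 genes were called higher and 273 lower. On chromosome 14, genes from 70 to 80 Mb (GRCm38, 29 genes) had a median difference of 0.84 with 22 called higher, and stood at -0.69 against WT in KO2 and 0.3 in KO3. Genes from 40 to 60 Mb were low in both lines (-0.74 and -0.9 in KO2, -0.91 and -1.04 in KO3, in 10 Mb steps). Rb1 lies in the 70 to 80 Mb segment, and Nefl in the segment from 60 to 70 Mb, where 14 of 38 genes were called higher. This last segment is not uniform. Its genes up to Fzd3 (65.19 Mb) had differences from -0.58 to 0.12, and all those from Elp3 (65.53 Mb) on, Nefl included, had positive differences.

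**Figure D5:**
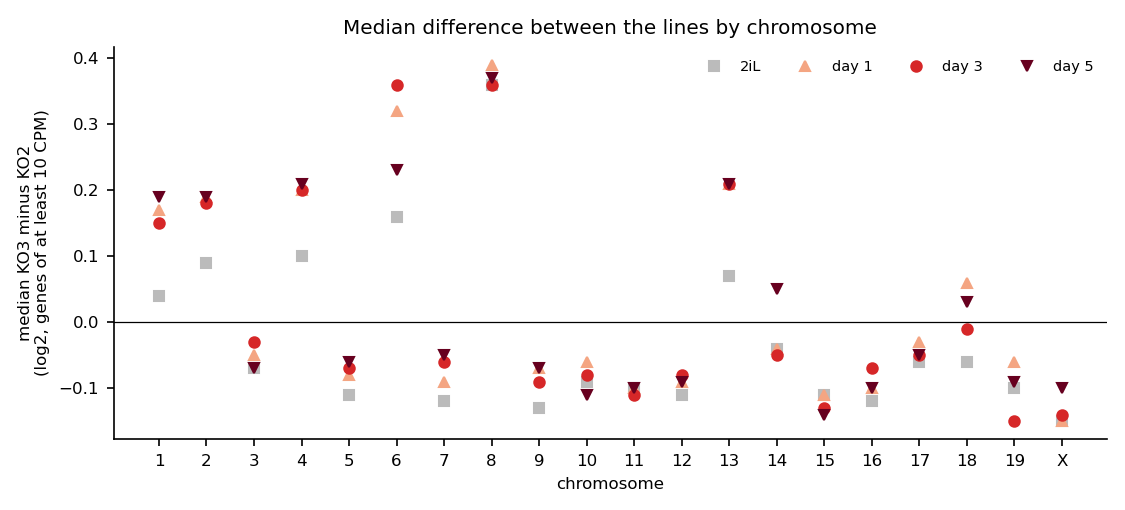
Median difference KO3 minus KO2 (log2, genes of at least 10 CPM) for each autosome and X, in 2iL and at AloXR days 1, 3 and 5. Chromosomes 8 and 6 stand highest at day 3 (0.36 each), and chromosome 8 stands highest of those drawn at the other times too (0.36 in 2iL, 0.39 at day 1 and 0.37 at day 5).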

How the data were processed

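Polyadenylated RNA of E14 mouse embryonic stem cells was read by QuantSeq 3′ sequencing in 41 libraries of 12 groups (line and time). The deposited values are CPM, reads per gene per 1000000 assigned reads. The submitters' processing notes name STAR 2.7.6a, featureCounts 2.0.1 of Subread and the GRCm38 build, and their settings are not given in the sources used here. Every deposited CPM value above 0 (766190 values, 100%) was a whole number of reads within 0.01 read, which gave 3424064 to 5736053 assigned reads per library.

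Genes with at least 1 CPM in 3 libraries (16967 of 55487) were fitted as log2(CPM + 1) in limma 3.58.1 (R 4.3.3), with a mean for each of the 12 groups, 29 residual degrees of freedom, and robust moderation with a trend. Calls needed an adjusted p below 0.05 (Benjamini-Hochberg, over all genes tested) and a 1.5-fold change or more, 0.58 in log2 units. Alternatives were edgeR 4.0.16 (quasi-likelihood test on the recovered reads, 1066 genes called, 710 higher and 356 lower), TMM and quantile scaling, centring of each chromosome, other pseudocounts and filters, a fit of only these libraries, and leaving out each library. On counts simulated for the day 3 comparison (16967 genes, dispersion 0.02), 12 of 67 changes of 1.5-fold, 59 of 67 of 2-fold and 66 of 66 of 4-fold were called, with 15 calls among unchanged genes. Changed genes were drawn only from those of at least 5 CPM in KO2 at day 3. All genes had the same dispersion and no shift was shared across a library. These rates therefore do not cover genes near 0 or the spread between the KO2 libraries.

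The groups compared, the 38 gene lists and the markers were chosen with earlier results of these data known. Named genes were taken by rule: the Esrrb family, the 12 largest rises and falls with at least 5 CPM, up to 4 called members per list, the 5 largest called differences between times in each direction, pluripotency and other reference genes, and the 5 most abundant genes of chromosomes with a median of at least 0.2 in size. This gave 157 genes, of which those carrying a result are printed. Cell type markers were added, and so was Magel2, after its values were seen. Labels carry no replicate numbers, so libraries are numbered in accession order. Limits for a count of 0 (3 reads) cover counting error only. A gene that the naming rule picked is not reported here.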

Additional observations from a re-analysis of the deposited data

Results flagged for a closer look

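In groups of 4 libraries at day 3, 10 of 138 groups of the named genes held a library that stood apart from the other 3 by a gap test whose chance rate is about 1 in 20. In WT these were Srgn at 0.181 CPM and Pga5 at 0.203 CPM (the other 3 listed at 0), Gm21818 at 0.237 CPM, Sycp3 at 157 CPM, Fbxo15 at 6.4 CPM and Dab2 at 0.812 CPM. In KO2 they were Lrp8os2 at 4.17 CPM, Kbtbd11 at 22.4 CPM, and the small heat shock genes Cryab at 52.2 CPM and Hspb1 at 94.9 CPM, both in library 2.

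The difference between the lines changed with time for several genes, by a test of that change in limma. From day 1 to day 3 it rose by 3.84 for Gm21761, 3.44 for Gm21818, 3.41 for Gm8994, 2.36 for Zscan4c, 2.01 for Klf2, 1.91 for Zscan4a, 1.81 for Tcstv3 and 1.64 for Zscan4d, all on the log2 scale. From 2iL to day 3 it rose by 4.06 for Gm21761, 3.88 for Gm20767, 3.41 for Gm8994, 3.41 for Gm21818, 2.91 for Anxa1, 2.61 for Zscan4c, 2.28 for Zscan4a, 2.23 for Zscan4d, 2.11 for Tcstv3 and 1.87 for Ifitm1. The Zscan4, Tcstv3 and Gm genes among them share sequence at their 3′ ends with other genes, so single copies are uncertain, and Klf2, Anxa1 and Ifitm1 were not checked for this.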

How the results depend on the processing

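Of 163 named genes tested, 100 were called and none changed sign among the called. The called genes that kept their call numbered 93 under TMM, 88 under quantile scaling, 87 under edgeR and without the filter, 86 when only these libraries were fitted and with a pseudocount of 5 CPM, 82 with chromosomes centred, 80 of the 80 still tested under the stricter filter, 81 to 90 without 1 KO2 library, and 49 or 54 without KO3 library 1 or 2. In all settings, 39 kept it. Calls at day 3 numbered 864 with a pseudocount of 5 CPM and 423 to 1369 when libraries were left out. Higher calls were 621 with chromosomes centred and 295 to 998 with libraries left out. Lower calls were 216 with a pseudocount of 5 CPM, 559 under quantile scaling and 128 to 371 with libraries left out. Changes from day 1 were 43 with edgeR, 34 under the stricter filter and 34 to 131 with libraries left out. Changes from day 5 were 14 with edgeR, 76 without the filter, 59 with a pseudocount of 5 CPM, 13 under the stricter filter and 0 to 55 with libraries left out. Changes from 2iL were 417 with edgeR, 344 under the stricter filter and 239 to 650 with libraries left out. Against WT, KO3 had 1925 calls with a pseudocount of 5 CPM, 2111 under the stricter filter and 1935 to 3248 with libraries left out, and KO2 had 1239 with a pseudocount of 5 CPM. The Esrrb difference ranged from 1.03 to 1.36 with libraries left out. Uncalled genes near 0 changed sign. Hmgcs1 was -0.011 and Fgf5 0.090 with chromosomes centred. Sox2 was -0.0010 with edgeR. Pou3f1 was 0.036 and Dnmt3b 0.0052 under quantile scaling. With libraries left out, Fgf5 ranged from -0.10 to 0.044, Pou3f1 from -0.11 to 0.067, Pou5f1 from -0.36 to 0.012 and Sox2 from -0.11 to 0.23. The causes were not tested. With 1 KO3 library, that library is assumed to vary like the other groups. No paired analysis was possible because the labels give no replicate numbers that could pair libraries of the lines.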

Other observations

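Germline genes whose promoters are normally methylated in somatic cells changed in both directions. Of 24 members tested, 5 rose (Stk31, Piwil2, Fkbp6, Hormad1 and Rpl10l) and 1, Sycp3, fell, against 5.58% and 2.11% of all genes. Stk31, a kinase of the germline, stood at 2.28, 0, 2.08 and 0.78 CPM in KO2 and 5.76 and 4.38 CPM in KO3 (1.55 ± 0.32, limma adjusted p = 0.00097), with no overlap. Piwil2, a piRNA-binding protein, stood at 0.91, 0, 0.63 and 0.58 CPM in KO2 and 1.85 and 5.35 CPM in KO3 (1.51 ± 0.34, limma adjusted p = 0.0024), and KO3 library 2 was well above library 1. The call of Stk31 was lost without KO3 library 1 and that of Piwil2 without KO3 library 2, and the count of 5 rises was 1 without either of these libraries or under the stricter filter, and 3 without KO2 library 3 or with a pseudocount of 5 CPM.

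Of 28 glycolysis and hypoxia genes tested, 1 rose and 3 fell (Pgam1, Vegfa and Aldoc), against 5.58% and 2.11% of all genes, so the share of rises is not above that of all genes. Pdk1, a pyruvate dehydrogenase kinase, stood at 17.8, 20.4, 12.5 and 12.2 CPM in KO2 and 32.7 and 35.03 CPM in KO3 (1.09 ± 0.26, limma adjusted p = 0.0042). Vegfa, the endothelial growth factor, stood at 18.5, 15.6, 19.17 and 12.8 CPM in KO2 and 7.81 and 7.30 CPM in KO3 (-1.02 ± 0.26, limma adjusted p = 0.0089). The glycolytic enzyme Aldoc was lower too, at 13.5, 12.6, 16.5 and 19.97 CPM in KO2 and 6.79 and 8.51 CPM in KO3 (-0.93 ± 0.24, limma adjusted p = 0.0081). None of the 3 overlapped between the lines, the calls of Pdk1 and Vegfa were lost when either KO3 library was left out, and that of Aldoc was lost without KO3 library 1.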
